A study of Mus musculus with 8 samples.

Results

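The 40 genes described here are 19 mitotic genes, 12 genes of G1 phase and entry into S phase (below, G1/S genes) and 9 genes of DNA replication and nucleotide supply. They were chosen by symbol as a cell cycle set relevant to decidual polyploidy, with earlier results of these data known. All 40 were found among the 49585 genes of the count table by their Ensembl identifiers (GENCODE mouse M21), and all 40 were among the 22693 genes with enough reads to be tested.

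The 8 libraries came from the whole uterus, fetal tissue included, of Foxp3DTR female mice, 1 library per female. In this strain the diphtheria toxin receptor is expressed with Foxp3, the transcription factor that defines regulatory T cells, so that diphtheria toxin (DT) kills those cells. All females were 8 weeks old, had been mated with BALB/c males and were collected at embryonic day 8 (E8). The 4 DT females had received 1 µg of toxin intraperitoneally at E1, E3, E5 and E7, and the 4 PBS females had received buffer on the same schedule. All 8 females carried the receptor allele and were pregnant from an allogeneic mating, so effects of the toxin itself cannot be told apart from those of the depletion. The comparison asks which uterine transcripts differ at E8 when regulatory T cells are depleted, which the submitters put at 85% of these cells. Libraries are named by their group and their label's replicate number: DT 1, 3, 4 and 5, and PBS 1, 2, 4 and 6. Values per library are given in this order.

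A cell that divides passes from G1 through S phase, in which DNA is copied, to mitosis, in which the copies are separated. D-type cyclins with Cdk4 and Cdk6 start the sequence, E-type cyclins with Cdk2 open S phase, the Mcm2 to Mcm7 helicase unwinds DNA at origins, and cyclins A and B with Cdk1 drive mitosis. After a mouse embryo implants, the stromal cells of the uterus divide and differentiate into decidua, and some of them go on copying DNA without dividing and become polyploid. D-type cyclins, Cdk4, Cdk6 and the inhibitor p21 (Cdkn1a) are known for their part in that switch, and E2f7 and E2f8, the atypical E2F repressors, for the polyploidy of trophoblast giant cells. Transcript levels of whole tissue measure neither DNA content nor which cells hold the RNA.

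The libraries held 94794512 to 109847604 counts in total, and no member fell below 988 counts in any library. Foxp3 itself, at chrX:7573644-7595245, was not lower after toxin: it was measured at 5.12, 5.10, 5.72 and 5.69 CPM in the DT-labelled libraries and 4.89, 4.36, 5.44 and 4.86 CPM in the PBS-labelled ones (CPM are counts scaled to a common library total and normalised for composition). Its log2 fold change was 0.15 (SE 0.10) with an adjusted p of 0.595 by edgeR's quasi-likelihood test, and 18.9% of its 75-base windows also occur in other genes, so it did not check the group labels. The libraries are therefore called DT-labelled and PBS-labelled. Titles carry an S1 or S2 suffix for PBS and S3 or S4 for DT, so whatever the suffix stands for cannot be told apart from the treatment. Marker genes of other tissues differed between libraries. The 8 markers of decidual stroma, such as the decidual prolactin Prl8a2, summed to 2546 CPM in DT replicate 1 and to between 5948 and 12049 CPM in the other 7. Markers of trophoblast (8 of 9 tested) summed to 190.0 and 471 CPM in PBS replicates 1 and 2 and to between 10.7 and 53 CPM in the other 6, and the 7 markers of yolk sac endoderm to 71.9 and 187 CPM against 5.16 to 18.0. In a whole organ, fewer cells of a type and less RNA per cell cannot be told apart.

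None of the 40 cell cycle genes passed the test for a difference between the DT-labelled and the PBS-labelled libraries. Mitotic, G1/S and replication transcripts were all measured well above the filter in both groups. Their adjusted p-values lay between 0.571 and 0.993 by edgeR's quasi-likelihood test with Benjamini-Hochberg adjustment over all genes tested, whereas 0.326% of all genes (74) passed 0.05. DESeq2 and limma voom also called none, against 1.47% and 0.229% of all genes. At an unadjusted p under 0.05 edgeR picked 0 of the 40, against 8.7% of all genes. DESeq2 picked 1, the kinase gene Cdk6, but the share of all genes it picked at that threshold was not counted. The smallest adjusted p of a member by DESeq2 was 0.413. For no member did all 4 libraries of one group lie above all 4 of the other, which 5.06% of all genes showed.

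The intervals say how large a difference these libraries could have hidden. The 95% interval of the fold change stayed within 2-fold in either direction for 39 of 40 members, the exception being Rrm2, and within 1.5-fold for 35 of 40 (87.5%). Over all genes tested these shares were 74.9% and 49.9%. Within 1.5-fold lay 17 of 19 mitotic, 10 of 12 G1/S and 8 of 9 replication genes. The estimates themselves were small and mostly positive: 36 of 40 were above 0 against 51.4% of all genes, with a median log2 fold change of 0.10 against 0.01. The members moved together from library to library, so the 36 signs are not separate observations. The plot of fold changes with their intervals shows the 3 groups side by side.

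**Figure D1:**
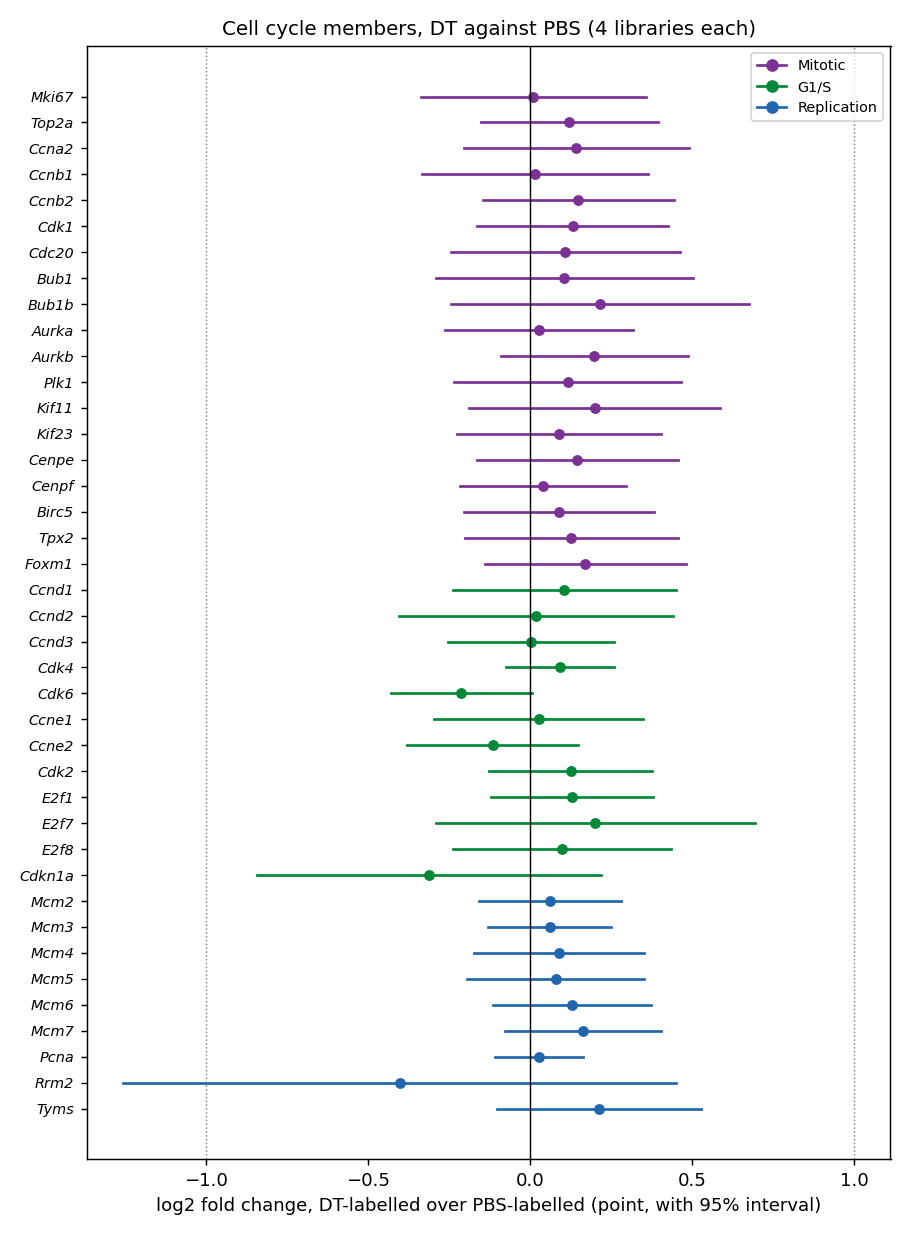
Log2 fold change of each of the 40 members, DT-labelled over PBS-labelled (horizontal axis), with its 95% interval from edgeR; n = 4 libraries per group, dotted lines at 2-fold, colours by group. All 40 intervals include 0, and the one of Rrm2, from -1.25 to 0.45, is the widest.

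The 19 mitotic genes, the largest group, gave estimates just above 0. Mki67, the gene of the Ki-67 antigen that marks cycling cells, was measured at 218, 145, 160.0 and 139 CPM in the DT-labelled libraries and 144, 177, 177 and 158 CPM in the PBS-labelled ones. The highest and the lowest value of this gene were both in the DT-labelled group, and the means of 165 ± 36.3 against 164 ± 16 CPM (SD, n = 4) were almost equal (log2 fold change 0.01, SE 0.15). Top2a, the topoisomerase that untangles chromosomes before they separate, was measured at 253, 196, 215 and 191 CPM in the DT-labelled libraries and 186, 187, 232 and 181 CPM in the PBS-labelled ones. Again DT replicate 1 was highest, PBS replicate 4 came next, and the groups overlapped (log2 fold change 0.12, SE 0.12, adjusted p 0.670 by edgeR).

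The cyclins and the kinase of mitotic entry behaved alike. Ccna2, the cyclin of S phase and G2, was measured at 109, 96.3, 115 and 94.3 CPM in the DT-labelled libraries and 80.3, 82.5, 125 and 86.5 CPM in the PBS-labelled ones. Ccnb1, the main cyclin of mitosis, was measured at 52.3, 38.8, 49.5 and 40.4 CPM in the DT-labelled libraries and 40.3, 44.4, 57 and 37.3 CPM in the PBS-labelled ones. In both genes PBS replicate 4 was the highest library and stood above every DT-labelled one. Ccnb2 had means of 31.3 ± 3.39 against 28.2 ± 4.83 CPM (SD, n = 4), and its partner kinase Cdk1 had means of 55.5 ± 5.55 against 50.7 ± 8.86 CPM (SD, n = 4). Log2 fold changes were 0.14 for Ccna2, 0.02 for Ccnb1, 0.15 for Ccnb2 and 0.13 for Cdk1, each with an SE of 0.13 to 0.15.

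Among the spindle and checkpoint genes, Bub1b, whose product delays anaphase until chromosomes are attached, had the largest estimate of the mitotic group. It was measured at 69.9, 46.5, 56.8 and 43.4 CPM in the DT-labelled libraries and 39.8, 41.7, 63.8 and 41 CPM in the PBS-labelled ones, a range that DT replicate 1 and PBS replicate 4 set at the top and PBS replicates 1, 2 and 6 at the bottom. The log2 fold change of Bub1b was 0.22, with an interval of -0.24 to 0.68 and an adjusted p of 0.657 by edgeR. Aurkb, the kinase of the chromosomal passenger complex, had the smallest unadjusted p of the mitotic group, 0.153, and was measured at 36.5, 32, 35.5 and 30.0 CPM in the DT-labelled libraries and 27.2, 25.8, 36.9 and 26.8 CPM in the PBS-labelled ones. Here PBS replicate 4 again lay above all DT-labelled libraries, so the groups overlapped through 1 library. Kif11, the motor that pushes the spindle poles apart, had an estimate of 0.20 on the log2 scale (SE 0.17), and Foxm1, the transcription factor of the G2 and mitotic programme, one of 0.17 (SE 0.14).

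The other mitotic genes gave estimates between 0.03 and 0.15. Aurka and Plk1 are kinases of centrosome maturation and mitotic entry, Bub1 is a checkpoint kinase, and Cdc20 activates the anaphase-promoting complex. Cenpe and Cenpf act at the kinetochore, Tpx2 in spindle assembly, Birc5 in the passenger complex and Kif23 in cytokinesis. Plk1 can stand for them, at 42, 31.2, 39.6 and 31.9 CPM in the DT-labelled libraries and 30.8, 32.2, 42.6 and 28 CPM in the PBS-labelled ones. The group median was 0.12 on the log2 scale, all 19 estimates were above 0, and the standard errors ran from 0.11 for Cenpf to 0.20 for Bub1b.

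G1/S genes showed the widest mix of patterns. Of the D-type cyclins, Ccnd1 was measured at 115, 82.9, 90.0 and 78.7 CPM in the DT-labelled libraries and 77, 74.3, 105 and 84.7 CPM in the PBS-labelled ones. Ccnd2 was measured at 36.6, 29.9, 28.8 and 29 CPM in the DT-labelled libraries and 26.2, 43.6, 28.3 and 24.6 CPM in the PBS-labelled ones, with PBS replicate 2 and DT replicate 1 above the rest. Ccnd3, the D cyclin most tied to the decidua, was measured at 113, 143, 132 and 154 CPM in the DT-labelled libraries and 144, 139.6, 140.2 and 117 CPM in the PBS-labelled ones. Its lowest values were 1 from each group, DT replicate 1 and PBS replicate 6, and its means were equal to within the spread (log2 fold change 0.00, interval -0.25 to 0.26, adjusted p 0.993 by edgeR). All 3 intervals of the D cyclins included 0, and that of Ccnd2, -0.40 to 0.44, was the widest of them.

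The partner kinases differed in sign. Cdk4 was the steadiest G1/S gene, at 235, 242, 246 and 242 CPM in the DT-labelled libraries and 217, 210.2, 250.5 and 227 CPM in the PBS-labelled ones. The 4 DT-labelled libraries lay within the PBS range, the means were 241 ± 4.50 against 226 ± 17.7 CPM (SD, n = 4), and the log2 fold change was 0.09 (SE 0.07). Cdk6, at chr5:3341485-3531008, was the member nearest to the threshold, at 97.6, 124, 110.1 and 115 CPM in the DT-labelled libraries and 125, 121, 124 and 147 CPM in the PBS-labelled ones. Every PBS-labelled library lay above 3 of the 4 DT-labelled ones, DT replicate 1 was lowest and PBS replicate 6 highest, and DT replicate 3 lay within the PBS range. The log2 fold change of Cdk6 was -0.21 (SE 0.09), with an unadjusted p of 0.0547 and an adjusted p of 0.571 by edgeR, so it did not pass.

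Of the genes that open S phase, Ccne1 had means of 17 ± 1.74 against 16.7 ± 3.09 CPM (SD, n = 4) and Ccne2 of 24.3 ± 2.90 against 26.3 ± 3.30 CPM (SD, n = 4). Cdk2, their kinase, had means of 35.5 ± 3.57 against 32.6 ± 4.33 CPM (SD, n = 4). Log2 fold changes were 0.03, -0.11 and 0.13, none beyond its spread. E2f1, an activator of S phase genes, was measured at 14.9, 12.3, 13.4 and 12.1 CPM in the DT-labelled libraries and 10.8, 11.4, 14.2 and 11.8 CPM in the PBS-labelled ones, and it was the least counted member.

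The atypical repressors E2f7 and E2f8, which act against E2f1 and favour endoreduplication in trophoblast giant cells, had higher mean levels than E2f1 per exon length, E2f7 by less than its own spread. E2f7 was measured at 53.7, 51, 60.5 and 43.6 CPM in the DT-labelled libraries and 36.7, 33.6, 66.9 and 44.4 CPM in the PBS-labelled ones. PBS replicate 4 was the highest library of E2f7 and PBS replicates 1 and 2 were the lowest, so the whole range lay inside the control group. E2f8 was measured at 149.6, 148, 175 and 143 CPM in the DT-labelled libraries and 124, 118, 184 and 149 CPM in the PBS-labelled ones, with the same library highest and the same pair lowest. The log2 fold changes were 0.20 for E2f7 (interval -0.29 to 0.69) and 0.10 for E2f8 (interval -0.24 to 0.44). PBS replicates 1 and 2 were also the libraries with the highest trophoblast and yolk sac marker sums given above. Without this pair the estimates were -0.09 for E2f7 and -0.12 for E2f8, so their sign rested on it, and the part of fetal tissue in them was not tested.

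Cdkn1a, at chr17:29090976-29100727, encodes p21, the inhibitor of cyclin-dependent kinases that p53 induces. It was measured at 34, 49.5, 50 and 54.8 CPM in the DT-labelled libraries and 69.4, 77.6, 45.6 and 41.3 CPM in the PBS-labelled ones. The 2 highest libraries were PBS replicates 1 and 2, the lowest was DT replicate 1, and the remaining 5 lay between 41.3 and 54.8 CPM. The log2 fold change of Cdkn1a was -0.31 (SE 0.23, interval -0.84 to 0.22, adjusted p 0.609 by edgeR). Without PBS replicates 1 and 2 it was 0.11, so the negative sign rested on these 2 libraries, and the part of fetal tissue in it was not tested.

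Replication genes other than Rrm2 had coefficients of variation over the 8 libraries from 4.03% for Pcna to 16.0% for Tyms. The median of all 40 members was 14.3%. The 6 subunits of the Mcm2 to Mcm7 helicase had log2 fold changes between 0.06 for Mcm3 and 0.16 for Mcm7, with standard errors of 0.08 to 0.12. Mcm2 can stand for them, at 79.3, 68.5, 72.3 and 66.2 CPM in the DT-labelled libraries and 63.5, 64.5, 80.7 and 65.8 CPM in the PBS-labelled ones. PBS replicate 4 and DT replicate 1 were its 2 highest libraries and the other 6 lay within 63.5 to 72.3 CPM. Pcna, the sliding clamp that holds DNA polymerase on its template, was the steadiest member of all, at 98.7, 94.2, 96.6 and 95.6 CPM in the DT-labelled libraries and 90.8, 97.5, 100.3 and 89.1 CPM in the PBS-labelled ones. Its coefficient of variation over the 8 libraries was 4.03%, and its interval of -0.11 to 0.16 on the log2 scale was the narrowest of the 40. Tyms, which makes thymidylate, was measured at 33.6, 26.6, 29.8 and 26.3 CPM in the DT-labelled libraries and 22.6, 22.5, 32 and 23.2 CPM in the PBS-labelled ones. Its log2 fold change of 0.21 (SE 0.14) again came with overlapping groups, since PBS replicate 4 was the second highest library.

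Rrm2, at chr12:24708241-24714146, encodes the regulatory subunit of ribonucleotide reductase, which makes the deoxynucleotides for DNA synthesis, and it stood apart from every other member. It was measured at 803, 2908, 2345 and 3057 CPM in the DT-labelled libraries and 3392, 3156, 2278 and 3210.4 CPM in the PBS-labelled ones. One library, DT replicate 1, held 0.352 times the level of the next lowest library, and the other 7 ranged from 2278 to 3392 CPM without separating the groups. The log2 fold change was -0.40 with an SE of 0.37 and an adjusted p of 0.657 by edgeR, and without DT replicate 1 it was -0.12. The mean log2 CPM of the decidual stroma markers was low in that same library, at 7.99 against 8.84 to 9.0 in the other 7. Prl8a2 was at 687 CPM there against 2893 to 8960 CPM. Alpl and Hoxa10 of the same list were not lowest in DT replicate 1, whereas all other genes of that list were. Alpl stood there at 86.5 CPM, its second highest level of the 8 libraries. Hoxa10 stood there at 377 CPM, above the 350.4 CPM of PBS replicate 2. The part of decidual tissue in the Rrm2 value was not tested.

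Levels were compared between genes only per kilobase of exon, as mean CPM per kilobase in the PBS-labelled libraries. Rrm2 was highest at 1086 ± 179.5 (SD, n = 4), 15.6-fold above the next member. Cdk4 followed at 69.6 ± 5.45, Pcna at 39.3 ± 2.23, E2f8 at 26.4 ± 5.51 and Ccna2 at 22.9 ± 5.23. Apart from the first 3, neighbours in this order mostly differed by less than their spread. The lowest were Kif23 at 3.45 ± 0.458, Ccnd2 at 3.26 ± 0.928 and Cenpf at 2.45 ± 0.256, and over the 8 libraries the median of all genes tested was 2.56 and that of the members 11.3. Of the D cyclins Ccnd1 (18.1 ± 2.92) and Ccnd3 (15.4 ± 1.42) differed by less than the spread of Ccnd1, and both lay above Ccnd2. Of the E2F genes, E2f8 was 6.92-fold above E2f1 and 5.24-fold above E2f7 in these libraries.

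**Figure D2:**
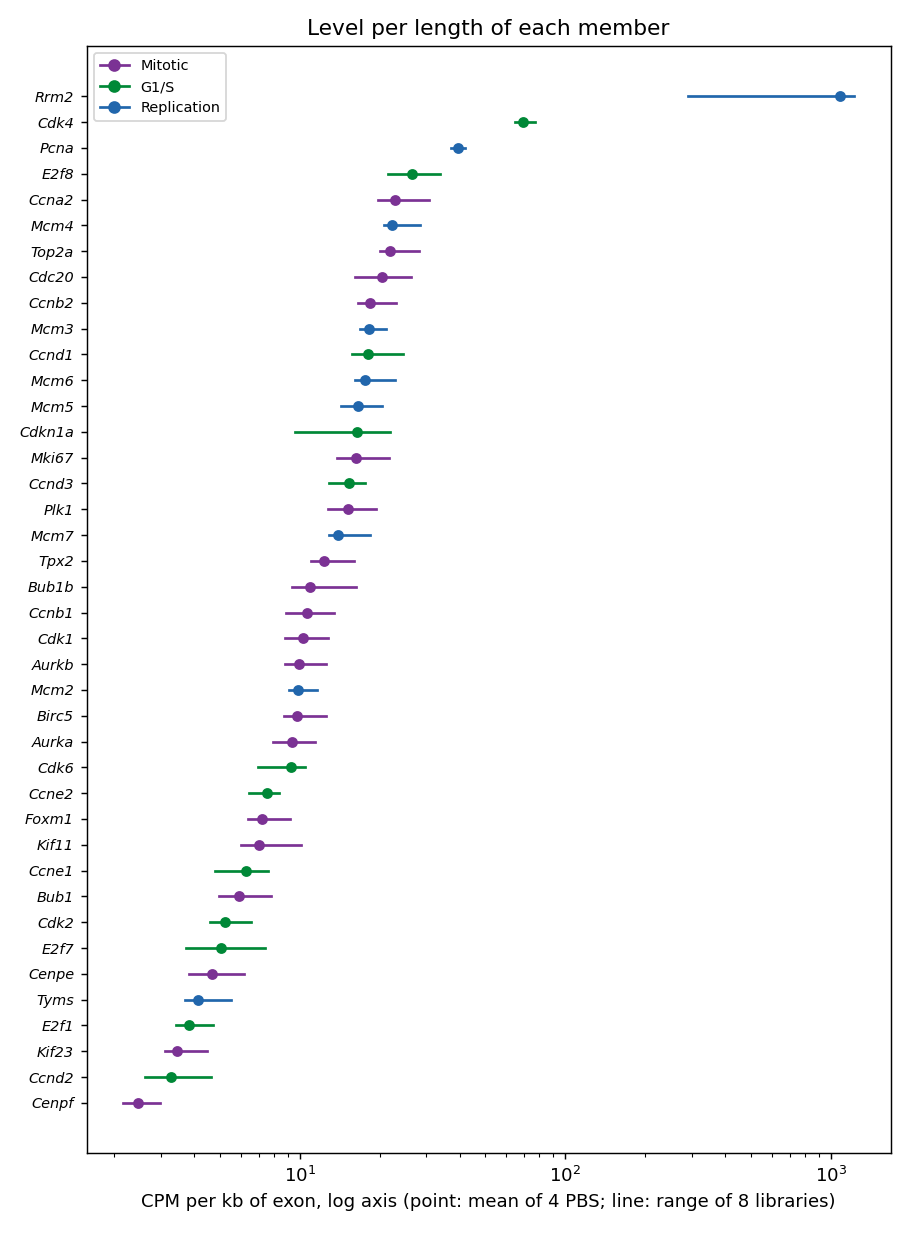
CPM per kilobase of exon of each member on a log axis: points are the means of the 4 PBS-labelled libraries, lines the range of all 8 libraries, colours the 3 groups. Rrm2 lies far to the right, at 1086 in the PBS-labelled libraries, and the line of Rrm2 reaches left to DT replicate 1.

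Reads of some members could belong to other genes. At least 10% of 75-base windows were shared with other genes for 7 members: Ccnd1 (20.6%), Ccnb1 (18.9%), Cdk4 (15.7%), Pcna (13.8%), Mcm7 (13.2%), Ccne2 (12.8%) and Ccna2 (10.8%). Exons of 16 members overlapped those of another gene, and the sources used here do not say whether strand was used in counting, so values of these genes are less certain.

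Across the 8 libraries most members followed one pattern, which the groups did not explain. DT replicate 1 or PBS replicate 4 was the highest of the 8 libraries for 34 of the 40 members, each for 17. This held for 19 of 19 mitotic, 8 of 9 replication and 7 of 12 G1/S genes. Mean log2 CPM of the 19 mitotic genes was 5.84, 5.48, 5.72 and 5.45 in DT replicates 1, 3, 4 and 5 and 5.35, 5.46, 5.83 and 5.36 in PBS replicates 1, 2, 4 and 6. The 3 high libraries, DT replicates 1 and 4 and PBS replicate 4, were spread over both groups. For the 8 replication genes other than Rrm2 the same means were 6.30, 6.03, 6.12 and 5.99 against 5.92, 5.98, 6.22 and 5.90, in nearly the same order. Rrm2 ran the other way from the mitotic genes: its 3 lowest libraries, DT replicate 1, PBS replicate 4 and DT replicate 4, were the 3 highest for the mitotic genes.

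**Figure D3:**
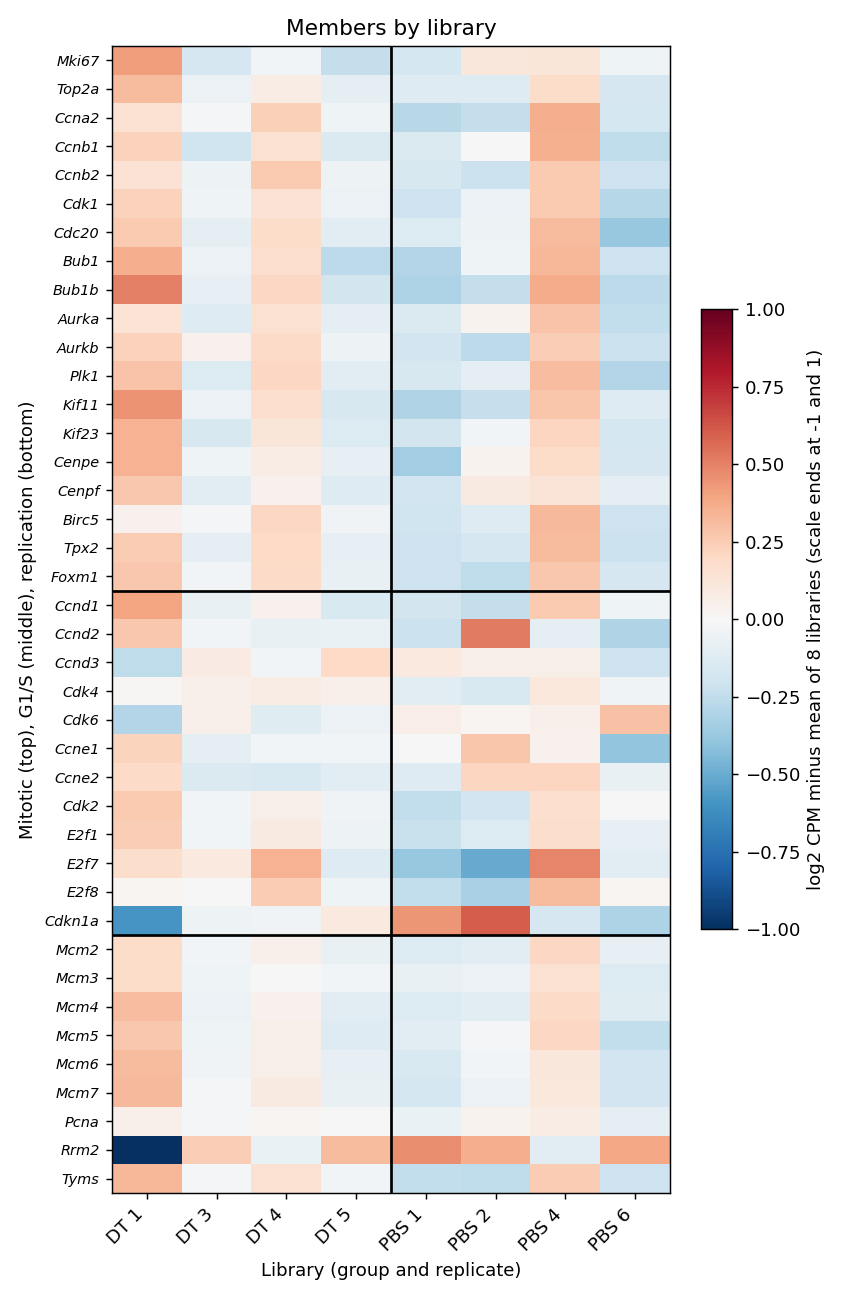
Log2 CPM of each member minus its mean over the 8 libraries (colour, scale ending at -1 and 1), with mitotic genes at the top, G1/S genes in the middle and replication genes at the bottom; columns are the 4 DT-labelled and the 4 PBS-labelled libraries. The columns of DT replicate 1 and PBS replicate 4 hold the highest value of 34 of the 40 members, while Ccnd3, Cdk6, Cdkn1a and Rrm2 are at their lowest in DT replicate 1.

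Marker genes also set these libraries apart. Mean log2 CPM of the 5 smooth muscle markers, such as Myh11 and Acta2, was 9.26 in DT replicate 1 and 9.16 in PBS replicate 4 against 8.43 to 8.89 in the other 6. Des, the most abundant gene of that list, went the other way, with its lowest level, 1799 CPM, in DT replicate 1 and 2402 CPM in PBS replicate 4 against 2328 to 2851 CPM in the other 6. Trophoblast markers were lowest in the same pair, at a mean log2 CPM of -0.82 and -0.40 against 0.48 to 4.22, and no read of the embryonic globin gene Hbb-bh1 was counted in either library or in DT replicate 4. Endothelial markers were also lowest there, at 6.43 and 6.52 against 6.62 to 7.58. Uterine epithelium markers had their highest mean in DT replicate 1, at 5.51 against 3.49 to 4.82, where the gland proteases Prss28 and Prss29 stood at 536 and 729 CPM. Epcam, Cdh1 and Krt7 of the same list were instead highest in PBS replicate 2. The part of these tissues in the cell cycle values was not tested. T cell markers, by contrast, followed the labels, with a summed level of 14.0 to 16.8 CPM in the DT-labelled and 4.90 to 7.36 CPM in the PBS-labelled libraries, 4 of 8 passing edgeR's test, all higher in DT. Of the 6 macrophage markers 2 passed edgeR's test, both higher in DT, and no marker of the other 9 cell type lists passed it. DESeq2 called 8 T cell and 2 macrophage markers higher, and 1 trophoblast and 2 yolk sac endoderm markers lower in DT. With limma voom 3 T cell markers and 1 macrophage marker were called, all higher in DT.

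**Figure D4:**
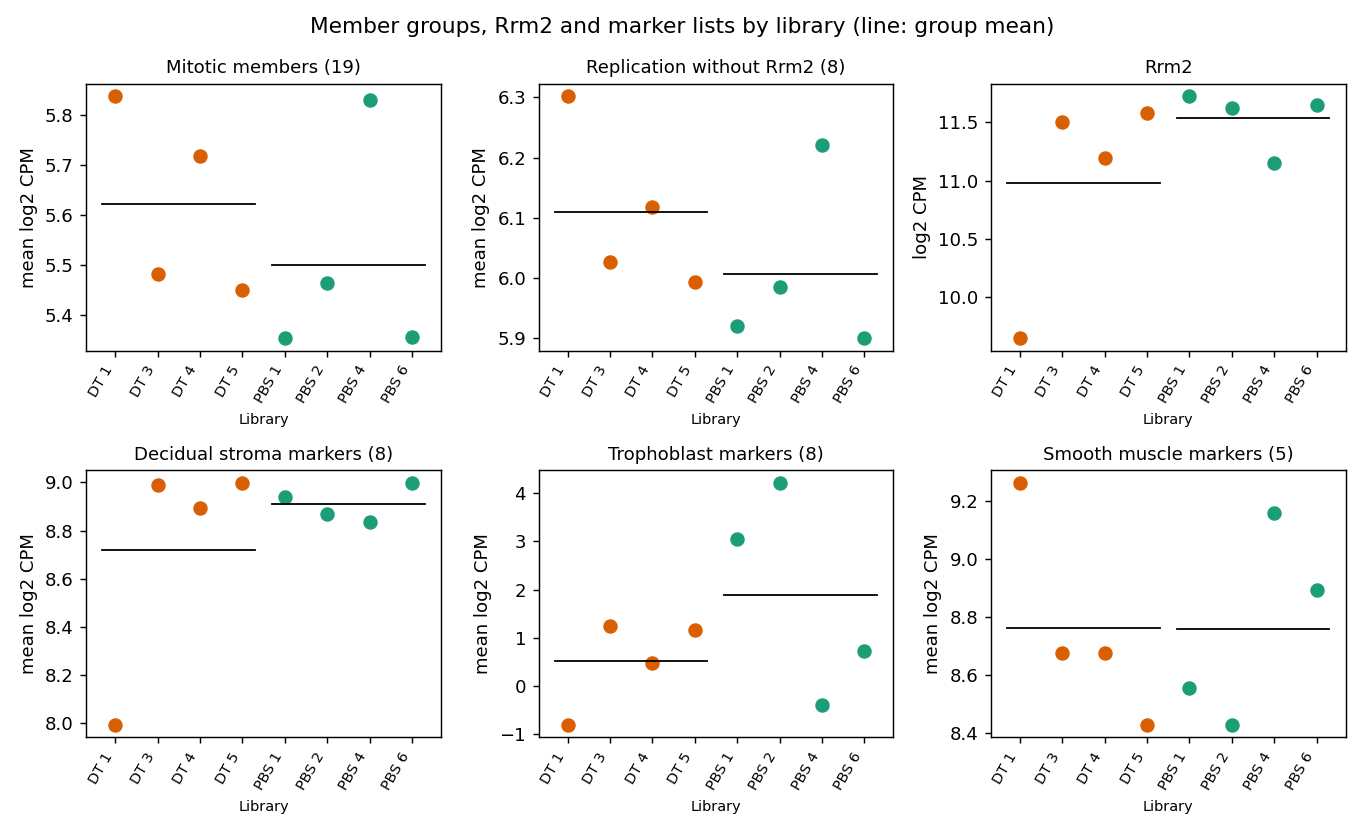
Mean log2 CPM per library of the mitotic genes (19), the replication genes without Rrm2 (8), and decidual stroma (8), trophoblast (8) and smooth muscle (5) markers, and log2 CPM of Rrm2; orange DT-labelled, green PBS-labelled, lines group means, each panel with its own axis. DT replicate 1 and PBS replicate 4 are the 2 highest for mitotic, replication and smooth muscle genes and the 2 lowest for Rrm2 and trophoblast genes.

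PBS replicate 4 bore on the size of the estimates. Without it the median log2 fold change of the mitotic genes was 0.25 in place of 0.12. That of the G1/S genes was 0.095 in place of 0.06, and that of the replication genes 0.17 in place of 0.08. An unadjusted p under 0.05 was then reached by 10 of 40 members, all higher in DT: Ccna2, Ccnb2, Cdk1, Bub1b, Aurkb, Birc5, Tpx2, Foxm1, E2f7 and Tyms. Over all 40 members that share, 25.0%, lies near the 21.5% of all genes that did so without that library. It was not even across the lists: apart from the G1/S gene E2f7 and the replication gene Tyms, the genes named were mitotic. The smallest adjusted p of a member was 0.142 by edgeR. Without DT replicate 1 the mitotic median was 0.05 and the replication median 0.01.

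G1/S and replication genes were also set against mitotic ones, since cells that copy DNA without dividing need replication but not division. The lists split these only in part. Ccna2 of the mitotic list also acts in S phase, and the G1/S list holds the inhibitor Cdkn1a and the repressors E2f7 and E2f8. Within each library the mitotic mean minus the mean of the 8 replication genes other than Rrm2 was -0.46, -0.54, -0.40 and -0.54 in the DT-labelled and -0.57, -0.52, -0.39 and -0.54 in the PBS-labelled libraries. Group means were -0.49 ± 0.07 and -0.51 ± 0.08 on the log2 scale (SD, n = 4), a difference of 0.02 that was smaller than either spread. The 2 libraries with the least negative values were PBS replicate 4 and DT replicate 4, 1 from each group. With Rrm2 kept among the replication genes, the group means were -1.03 ± 0.16 and -1.12 ± 0.12 (SD, n = 4). That difference of 0.09 was also smaller than either spread. Mitotic minus G1/S means were -0.15 ± 0.15 and -0.25 ± 0.12, also within their spread. These values are descriptions, with no test, because the genes were grouped with earlier results of these libraries known.

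Sequence around the start of the genes did not enter their choice. RefSeq promoter windows of 300 bases covered 250 before and 50 after the annotated start (GRCm38.p6). They were found for 32 of 40 members, 3 of them with several windows. For E2f1, Cdk6 and Mcm7 every window lay inside the gene as annotated in GENCODE M21. Sequence before the outermost start of these genes was therefore not searched. Shown here are Ccnb2 and Top2a for the mitotic genes, Mcm5 and Mcm6 for replication, E2f8 as the G1/S gene with a CHR match and Rrm2 for its level, each written 5′ to 3′ on the gene's strand with the searched motifs in capitals. Their windows are chr9:70421505-70421804, minus strand for Ccnb2; chr11:99024140-99024439, minus strand for Top2a; chr8:75109259-75109558, plus strand for Mcm5; chr1:128359656-128359955, minus strand for Mcm6; chr7:48881547-48881846, minus strand for E2f8; and chr12:24708004-24708303, plus strand for Rrm2.
Ccnb2: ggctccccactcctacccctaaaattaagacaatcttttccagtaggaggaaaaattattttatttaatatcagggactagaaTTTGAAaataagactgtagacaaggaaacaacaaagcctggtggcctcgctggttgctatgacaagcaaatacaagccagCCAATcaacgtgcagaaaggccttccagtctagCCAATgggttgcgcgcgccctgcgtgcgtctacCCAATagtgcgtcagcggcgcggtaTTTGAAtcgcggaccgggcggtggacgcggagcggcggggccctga
Top2a: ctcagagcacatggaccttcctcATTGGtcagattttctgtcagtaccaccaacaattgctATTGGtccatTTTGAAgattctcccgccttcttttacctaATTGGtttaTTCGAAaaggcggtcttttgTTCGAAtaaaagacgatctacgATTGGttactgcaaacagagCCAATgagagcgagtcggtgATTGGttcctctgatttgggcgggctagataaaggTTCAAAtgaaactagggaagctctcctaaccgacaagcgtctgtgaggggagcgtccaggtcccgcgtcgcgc
Mcm5: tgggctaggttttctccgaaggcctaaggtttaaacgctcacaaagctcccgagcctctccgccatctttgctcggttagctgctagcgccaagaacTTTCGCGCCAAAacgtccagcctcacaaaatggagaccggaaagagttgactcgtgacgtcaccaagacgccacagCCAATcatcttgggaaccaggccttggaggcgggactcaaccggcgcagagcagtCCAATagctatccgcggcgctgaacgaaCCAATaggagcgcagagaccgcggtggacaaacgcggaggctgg
Mcm6: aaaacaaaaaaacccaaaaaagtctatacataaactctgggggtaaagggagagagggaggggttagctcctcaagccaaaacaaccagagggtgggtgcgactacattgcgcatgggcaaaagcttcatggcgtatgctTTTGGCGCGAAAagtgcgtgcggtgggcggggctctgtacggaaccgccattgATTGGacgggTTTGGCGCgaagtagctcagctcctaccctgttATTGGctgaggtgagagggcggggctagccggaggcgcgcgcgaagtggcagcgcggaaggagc
E2f8: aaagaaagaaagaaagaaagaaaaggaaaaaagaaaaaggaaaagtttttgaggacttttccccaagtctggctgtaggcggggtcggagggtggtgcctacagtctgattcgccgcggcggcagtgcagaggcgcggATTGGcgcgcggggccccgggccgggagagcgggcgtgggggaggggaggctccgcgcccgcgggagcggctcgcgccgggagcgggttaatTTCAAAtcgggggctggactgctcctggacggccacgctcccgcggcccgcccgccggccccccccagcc
Rrm2: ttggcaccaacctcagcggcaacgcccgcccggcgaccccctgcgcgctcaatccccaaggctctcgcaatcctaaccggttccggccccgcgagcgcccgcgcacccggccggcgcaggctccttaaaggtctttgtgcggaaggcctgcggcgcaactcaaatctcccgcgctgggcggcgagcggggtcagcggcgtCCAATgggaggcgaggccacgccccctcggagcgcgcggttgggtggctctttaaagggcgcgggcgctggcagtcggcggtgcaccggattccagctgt

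The motifs were searched on both strands: the CHR element of late cell cycle genes (TTTGAA or TTCGAA), the CCAAT box bound by NF-Y (CCAAT), and the E2F site of S phase genes (TTTCGCGC, TTTGGCGC, TTTCCCGC or TTTGCCGC). In the member windows 3 pairs of matches overlapped, such as the longest run of capitals in Mcm5 and in Mcm6. A CHR match lay in the window of 12 of 15 mitotic genes (80.0%), 1 of 9 G1/S genes (11.1%, E2f8) and 2 of 8 replication genes (25.0%, Mcm2 and Mcm7), against 21.7% of 27025 genes with a window. A CCAAT match lay in 14 of 15 mitotic (93.3%), 4 of 9 G1/S (44.4%) and 7 of 8 replication genes (87.5%), against 41.1% of all. An E2F match lay in 4 of 8 replication genes (50%: Mcm3, Mcm5, Mcm6 and Mcm7), in 2 of 9 G1/S genes (22.2%, Cdk2 and E2f7) and in 1 of 15 mitotic genes (6.67%, Cdk1), against 2.61% of all.

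In Ccnb2, 3 CCAAT boxes lie in a row before the second of 2 CHR matches, whereas the window of Top2a holds 6 CCAAT and 4 CHR matches. Rrm2 has 1 CCAAT match and neither of the other motifs in this window. A match describes letters in a window and shows neither binding nor use of the site.

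**Figure D5:**
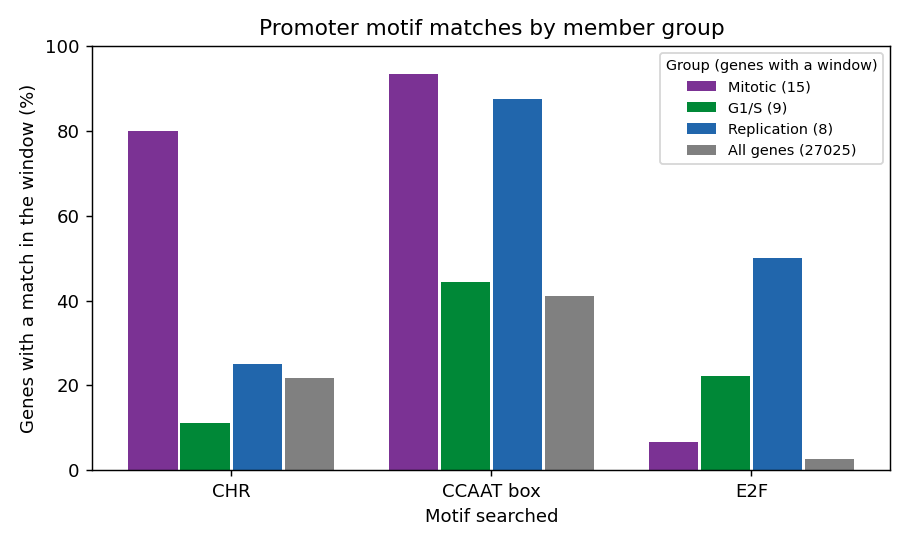
Share of genes with at least 1 match to the CHR element, the CCAAT box or the E2F site in the 300-base promoter window, for mitotic (15), G1/S (9), replication (8) and all genes (27025) with a window. CHR matches stand at 80.0% in the mitotic group and E2F matches at 50% in the replication group, against 21.7% and 2.61% of all genes.

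Around the members, 9 further lists of the same machinery, 155 genes in all, were read from the same fit. None passed edgeR's test, 5 (3.23%) reached an unadjusted p under 0.05 against 8.7% of all genes, limma voom called none and DESeq2 called 1, Fas. Origin licensing (17 genes, median log2 fold change 0.06, 11 estimates above 0) was led by Orc1, of the origin recognition complex, at -0.24 (SE 0.14), and Gins4, of the replicative helicase, at 0.12 (SE 0.08). Replication fork genes (27, median 0.07, 21 above 0) were led by Pola2, of the priming polymerase, at 0.43 (SE 0.23), and Rfc3, of the clamp loader, at 0.19 (SE 0.11). Pola2 was measured at 56.1, 34.2, 42.4 and 31.5 CPM in the DT-labelled libraries and 25.3, 26.9, 43.1 and 26.9 CPM in the PBS-labelled ones, with DT replicate 1, PBS replicate 4 and DT replicate 4 on top, as in the mitotic group.

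The spindle list (20 genes) had a median of 0.14 with 18 estimates above 0, and the kinetochore and checkpoint list (19 genes) a median of 0.15 with all 19 above 0. Their leading genes were Kif2c, which shortens microtubules, at 0.21 (SE 0.14), Cit, the citron kinase of cytokinesis, at -0.11 (SE 0.08), Ndc80, which links kinetochores to microtubules, at 0.23 (SE 0.14), and Cenpk, of the inner kinetochore, at 0.24 (SE 0.17). Regulators of mitotic entry and exit with the condensins (23 genes) had a median of 0.10 and 19 estimates above 0. Pttg1, or securin, which holds back sister chromatid separation, was measured at 11.3, 10.7, 12 and 10.9 CPM in the DT-labelled libraries and 9.29, 9.68, 10.7 and 8.86 CPM in the PBS-labelled ones. All 4 DT-labelled libraries of Pttg1 lay above all 4 PBS-labelled ones, by a narrow margin, as for 5.06% of all genes in either direction, with a log2 fold change of 0.22 (SE 0.08) and an adjusted p of 0.555 by edgeR, which did not pass. Ncaph, of condensin, was at 0.23 (SE 0.14).

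Inhibitors and pocket proteins (9 genes, median 0.07, 7 above 0) held the largest estimate of these lists. Cdkn1c, which encodes p57, an inhibitor abundant in trophoblast, was measured at 64.3, 42.3, 46.2 and 39.8 CPM in the DT-labelled libraries and 87.4, 174, 51.7 and 30.3 CPM in the PBS-labelled ones. PBS replicates 1 and 2, the libraries with the most trophoblast marker RNA, were the 2 highest. DT replicate 1, where the trophoblast markers summed to 13.7 CPM, came next. The log2 fold change of -0.83 (SE 0.48) did not pass, and the part of fetal tissue in it was not tested. Rbl2, or p130, of the repressor complex of resting cells, was at -0.12 (SE 0.05). Other E2F, DREAM and Myb genes (14, median -0.02, 7 above 0) were led by the repressor E2f6 at -0.36 (SE 0.13) and Lin52 at -0.30 (SE 0.17). The libraries of E2f6 did not overlap, by a narrow margin, as for 5.06% of all genes in either direction. E2f6 was measured at 26.3, 38.9, 34.2 and 38.8 CPM in the DT-labelled libraries. In the PBS-labelled ones it stood at 42.8, 46.7, 39 and 48.8 CPM, and the adjusted p was 0.553 by edgeR.

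Targets of p53 (16 genes) had a median of -0.12 with 5 estimates above 0. Fas, a death receptor that p53 and T cell activation both induce, was measured at 2.64, 2.70, 2.88 and 2.85 CPM in the DT-labelled libraries and 1.48, 1.55, 2.25 and 1.88 CPM in the PBS-labelled ones. Every DT-labelled library lay above every PBS-labelled one, as for 5.06% of all genes in either direction. The log2 fold change of Fas was 0.63 (SE 0.15), with an adjusted p of 0.277 by edgeR and of 0.00626 by DESeq2. Fas therefore passed with DESeq2 and not with edgeR or limma voom. T cell markers were higher in the same 4 libraries, and their part in the Fas value was not tested. Ccng1, cyclin G1, was at -0.16 (SE 0.07). In the other direction, 1 of the 16 targets lay lower in every DT-labelled library than in every PBS-labelled one. No target was called lower by edgeR, DESeq2 or limma voom.

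Regulators of decidual growth and polyploidy (10 genes, median 0.04, 6 above 0) included Nr5a2, a nuclear receptor needed for decidualization, and Il11ra1, the receptor of interleukin 11 in decidualizing stroma. Nr5a2 was measured at 6.38, 4.17, 4.52 and 3.81 CPM in the DT-labelled libraries. In the PBS-labelled ones it stood at 2.93, 2.31, 3.80 and 3.73 CPM. The groups of Nr5a2 did not overlap, by 3.81 against 3.80 CPM, as for 5.06% of all genes in either direction. Its adjusted p was 0.558 by edgeR (log2 fold change 0.56, SE 0.22). Il11ra1 was measured at 44.3, 70.4, 52.3 and 73.7 CPM in the DT-labelled libraries and 109, 109.8, 53.3 and 75 CPM in the PBS-labelled ones. Its 2 highest libraries were PBS replicates 1 and 2 and its 2 lowest DT replicates 1 and 4, with PBS replicate 4 close to them, and the log2 fold change of -0.53 (SE 0.26) did not pass.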

How the data were processed

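Whole-uterus RNA of 8 females was sequenced as mRNA libraries in paired reads of about 75 bases. Reads were trimmed with Trimmomatic, aligned to GRCm38 with HISAT2 and counted per gene with featureCounts, per the submitters' processing notes. The deposited values are raw counts per gene. Tool versions, the annotation and the strand setting are not stated by them.

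Ensembl identifiers were matched to GENCODE M21 symbols, for 49326 of 49585 genes. Counts were filtered with edgeR 4.0.16 (filterByExpr), scaled by TMM and tested two-sided with its robust quasi-likelihood test, DT against PBS over all 8 libraries without covariates, with Benjamini-Hochberg adjustment and a threshold of 0.05. CPM are counts over TMM-scaled library totals. Intervals are 95% from unshrunk coefficients and cover the spread between females. DESeq2 1.42.0, limma 3.58.1 voom, other scalings, filters, a replicate block and left-out libraries were alternatives. No 2 libraries agreed within counting noise (lowest chi-square per degree of freedom 26.3 over 28 pairs). The script was tested on simulated counts. Named genes are the 40 members, the 2 genes of smallest p of each other list, the first 2 of each marker list and Foxp3; other marker genes were named after their values were seen. The members and lists were chosen with earlier results of these data known.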

Additional observations from a re-analysis of the deposited data

Results flagged for a closer look

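In 19 of 130 groups of 4 libraries checked, 1 library lay so far from the other 3 that the gap took up most of the range of the group. Chance alone would mark about 1 in 20 groups, and the genes checked are not independent of each other, since most of them share the same high libraries.

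PBS replicate 4 was that library for 13 of the 19, always on the high side of the PBS-labelled group. Among the mitotic genes it stood at 232 CPM for Top2a (the other 3 at 181 to 187), 125 CPM for Ccna2 (80.3 to 86.5), 35.4 CPM for Ccnb2 (25.4 to 26.4) and 63.8 CPM for Bub1b (39.8 to 41.7). It stood at 36.9 CPM for Aurkb, 42.6 CPM for Birc5, 74.7 CPM for Tpx2 and 52.8 CPM for Foxm1. Among the replication genes it stood at 80.7 CPM for Mcm2, 93.8 CPM for Mcm4 and 32.0 CPM for Tyms. The mean log2 CPM of the spindle list was 5.12 in it against 4.62 to 4.70 in the other 3, and that of the kinetochore and checkpoint list 4.47 against 3.99 to 4.05.

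DT replicate 1 stood apart from the other DT-labelled libraries at 36.6 CPM for Ccnd2 (28.8 to 29.9) and 28.6 CPM for Ccne2 (22.6 to 23.2). Its mean log2 CPM of decidual stroma markers, 7.99, was below the 8.9 to 9.0 of the other 3. PBS replicate 6 stood apart at 117 CPM for Ccnd3, below 139.6 to 144 CPM, at 147 CPM for Cdk6, above 121 to 125 CPM, and at a mean log2 CPM of 3.76 for the inhibitor and pocket protein list, below 4.17 to 4.23.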

How the results depend on the processing

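No member was called under any of the 17 alternatives run. The number of all genes called, 74, was 333 with DESeq2, between 0 and 116 with 1 library left out, and 1 without PBS replicates 1 and 2. Replicate numbers 1 and 4 occur in both groups. Libraries with number 1 deviated in opposite directions (r = -0.62 over 16079 genes) and those with number 4 together (r = 0.34). Tissue markers also differed between libraries, so these correlations cannot tell whether a number marks a shared batch or day. With the replicate number as a block 0 genes were called, and the median log2 fold change of the mitotic genes was 0.17. Scaling by library size only moved the median of all genes from 0.01 to 0.12. The medians of the mitotic, G1/S and replication genes were then 0.24, 0.18 and 0.20, against 0.12, 0.06 and 0.08. With 1 library left out, the median of the mitotic genes ranged from 0.05 without DT replicate 1 to 0.25 without PBS replicate 4, and that of the replication genes from 0.012 to 0.17 with the same 2 libraries. Without DT replicate 1 and PBS replicates 1 and 2 the medians were -0.058 for mitotic, -0.068 for G1/S and -0.0039 for replication genes, 28 of 40 estimates had the opposite sign, and none passed. The direction of the small estimates therefore depended on which libraries were kept. The cause was not tested. The lowest count of a member in a library was 988, and no other depth was tried.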

Other observations

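The first genes of each cell type list give the levels behind the marker sums. The decidual genes Prl8a2 and Bmp2 were separate in their pattern: Bmp2, a growth factor of decidualization, was measured at 506, 685, 816 and 592 CPM in the DT-labelled libraries and 592, 523, 846 and 838 CPM in the PBS-labelled ones. The trophoblast hormone Prl3d1 was measured at 8.53, 23.4, 13.2 and 16.2 CPM in the DT-labelled libraries and 56.1, 191, 4.52 and 8.02 CPM in the PBS-labelled ones, and its relative Prl3b1 did not exceed 1.60 CPM. Afp and Apoa1, of yolk sac endoderm, were highest in PBS replicate 2, at 38.3 and 22.9 CPM, and in PBS replicate 1, at 7.56 and 9.25 CPM, and stayed below 2 CPM elsewhere. Sox2 and Otx2, of early neural tissue, were highest in PBS replicate 2 as well, at 2.08 and 0.918 CPM, and the globin gene Hbb-bh1 stood there at 114 CPM. Another embryonic globin gene, Hba-x, was not tested, since too few libraries held enough reads.

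The endothelial genes Pecam1 and Cdh5 also had their 2 highest values in PBS replicates 1 and 2, at 369 and 458 CPM for Pecam1 and 615 and 744 CPM for Cdh5. The smooth muscle gene Myh11 was measured at 1097, 528, 569 and 374 CPM in the DT-labelled libraries and 384, 341, 849 and 713 CPM in the PBS-labelled ones, and Acta2 at 738, 459, 472 and 376 CPM in the DT-labelled libraries and 370.5, 363, 676 and 546 CPM in the PBS-labelled ones. In both genes DT replicate 1 was highest and PBS replicate 4 next, as for many of the mitotic genes. The epithelial genes Epcam and Cdh1 were highest in PBS replicate 2, at 22.1 and 47.9 CPM, and stood at 19.7 and 34.8 CPM in DT replicate 1. Of the natural killer cell genes, Ncr1 spanned 5.16 to 7.25 CPM and Klrd1 3.77 to 6.19 CPM. The other genes of that list varied more: Prf1, Gzma, Gzmb and Gzmc had log2 fold changes of -1.38, -0.81, -0.84 and -1.38, each with an unadjusted p under 0.05 and an adjusted p of 0.531 to 0.562 by edgeR. Prf1 was measured at 28.5, 50.3, 40.7 and 62.9 CPM in the DT-labelled libraries and 159, 212, 40.5 and 64 CPM in the PBS-labelled ones, with PBS replicates 1 and 2 far above the rest, and the list sum ran from 189 to 939 CPM. The T cell genes Cd3e and Cd3d lay higher in all 4 DT-labelled than in all 4 PBS-labelled libraries, with log2 fold changes of 2.31 and 1.74 and adjusted p-values of 0.0314 and 0.107 by edgeR. The macrophage genes C1qa and C1qb did so as well, at 0.75 and 0.70, with adjusted p-values of 0.0353 and 0.0491 by edgeR.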
